A study of Mus musculus with 12 samples.

Results

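The oligoadenylate synthetase (Oas) family was examined in mouse microglia, the resident macrophages of the brain. All probes whose accession mapped to Oas1a, Oas1b, Oas1g, Oas2, Oas3, Oasl1 or Oasl2 were taken. Of these 7 genes, 6 had at least 1 probe, 11 distinct probes in all, out of 23579 genes with a symbol and 81657 probes on the arrays. No probe's accession mapped to Oas1b, which the RefSeq table lists as a transcribed pseudogene, so no value is given for it. Microglia of male mice aged 8 weeks had been enriched by magnetic sorting for the receptor CX3CR1 and profiled on single-colour arrays. The 6 groups, each of 2 samples, were ZEB1 overexpression, ZEB1 knock-down and wild type after transient middle cerebral artery occlusion (tMCAO), and the same 3 genotypes before it. tMCAO is a stroke model in which a brain artery is blocked and then reopened, and ZEB1 is a zinc-finger transcription factor known as a repressor of epithelial genes. The sources used here do not give how long after tMCAO the cells were taken, what drives the overexpression or knock-down, or whether animals were pooled.

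Oas proteins are sensors of double-stranded RNA. On binding it, the active members join ATP into short oligoadenylates, messengers that lead to the breakdown of viral and cellular RNA. Their genes are induced by type I interferon through the transcription factor complex ISGF3, which binds interferon-stimulated response elements, and microglia are among the brain cells known to make and answer such interferons. In the mouse, Oas1a, Oas1g, Oas2, Oas3 and Oasl2 are described as enzymes, whereas Oasl1 is described as lacking synthetase activity and as holding back the translation of Irf7.

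All 7 genes lie on chromosome 5. In the RefSeq annotation of GRCm38.p6, Oasl2 (114896926 to 114912245) and Oasl1 (114923143 to 114937911) sit side by side. The second cluster holds Oas2 (120730333 to 120749886), Oas3 (120753098 to 120777684), Oas1b (120812635 to 120824163), Oas1g (120876142 to 120887613) and Oas1a (120896256 to 120907544). RefSeq promoter windows of 300 bases were at hand for 5 members, Oas1a, Oas1g, Oas3, Oasl1 and Oasl2. They were searched on both strands for GAAANNGAAA (TTTCNNTTTC on the other strand), the repeated core of interferon response elements. It was found in 3 of the 5 windows, against 3.44% of 32851 mouse promoter windows of the same length. The stretches that hold it are shown because these 3 members are among those measured below, with the matches in capitals.
Oas1a, chr5:120907506-120907605, minus strand: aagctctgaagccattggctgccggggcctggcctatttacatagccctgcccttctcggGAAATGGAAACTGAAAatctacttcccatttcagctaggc
Oas1g, chr5:120887594-120887693, minus strand: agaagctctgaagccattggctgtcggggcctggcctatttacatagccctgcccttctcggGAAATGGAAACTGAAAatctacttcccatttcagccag
Oas3, chr5:120777680-120777779, minus strand: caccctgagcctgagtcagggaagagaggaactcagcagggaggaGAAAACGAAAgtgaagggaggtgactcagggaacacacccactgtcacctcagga

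Oas1a and Oas1g each held 2 overlapping matches, starting 20 and 14 bases before the start site of the window in Oas1a and 18 and 12 bases before it in Oas1g. The window's start site lies 19 bases inside the annotated gene for Oas1a, 25 bases inside for Oas3 and at the outer end of the gene for Oas1g, so the Oas1a matches lie at or just inside the outer end of its gene. A longest shared run of 73 bases covers both matches, so the 2 paralogs are near copies of each other there. Oas3 held 1 match, starting 75 bases before the start site of its window. The longer form GAAANNGAAAC occurred in the windows of Oas1a and Oas1g and in 0.819% of all windows. No match lay in the windows of Oasl1 and Oasl2, which says only that these letters are not in them. A match is a description of sequence, not a binding site.

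**Figure D1:**
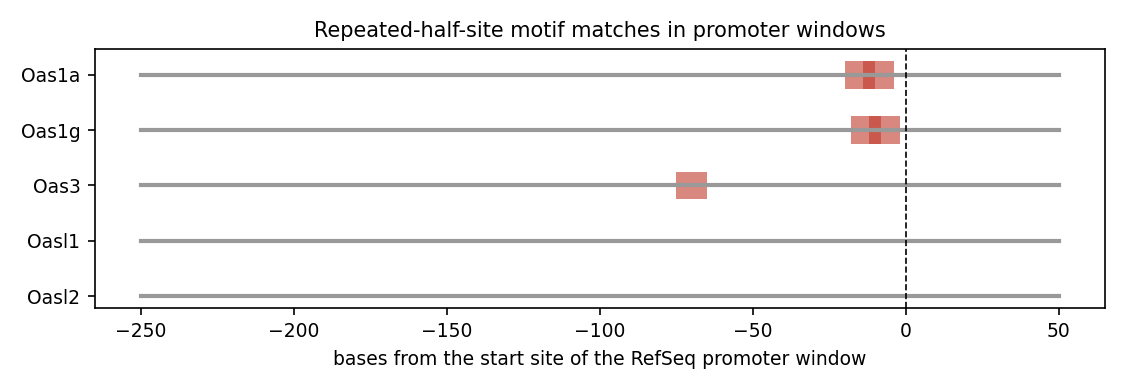
Position of GAAANNGAAA matches, either strand, in the RefSeq promoter windows of 5 members. The x axis gives bases from the start site each window was built on (dashed line), grey lines are the windows and red blocks the matches: 2 overlapping blocks in Oas1a and in Oas1g, 1 in Oas3, and none in Oasl1 and Oasl2.

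The 12 arrays came from 2 designs. ZEB1 overexpression and wild type after tMCAO shared a slide of 4 arrays, and ZEB1 knock-down after tMCAO shared a slide of 8 arrays with the 3 genotypes before tMCAO. Levels are log2 intensity minus the 75th percentile of the array, so 0 marks that percentile. In intensity units it was 1078 to 1515 for arrays of the 4-array slide and 2566 to 3702 for the others. On 8 arrays the scanner software marked 7.49% to 23.7% of spots as non-uniform or outlying. On the remaining 4, knock-down and wild type before tMCAO, it marked 1.03% to 3.28%. The microglia markers (9 of 9, among them Cx3cr1 and P2ry12) were well above background on all 12 arrays, as were those of astrocytes (6 of 6), oligodendrocytes (6 of 6) and neurons (6 of 6). Zeb1 itself read -0.08 and 0.56 after tMCAO on the arrays labelled ZEB1 overexpression, against 0.12 and 0.41 in wild type. Before tMCAO it lay at -0.28 and -0.36 with overexpression and -0.11 and -0.79 with knock-down, against -0.57 and -0.59 in wild type. The knock-down arrays after tMCAO gave -0.66 and -0.67. Zeb1 thus overlapped between overexpression and wild type after tMCAO and was not lower in the knock-down group before it. Groups are therefore named as labelled. The sources used here do not say whether the Zeb1 probes would detect the introduced transcript or the targeted one.

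After tMCAO, all 6 measured members were higher in both arrays labelled ZEB1 overexpression than in both wild type arrays. Oas2, Oas3, Oas1g and Oasl1 stood about 3 log2 units or more higher, and Oas1a and Oasl2 between 1 and 1.5. A calling threshold of adjusted p under 0.05 was used with limma, a linear model fitted across all genes. With marked spots left out, 3 of the 4 members that had a value were called higher. That compares with 1.59% of 22072 genes called higher and 2.34% called in either direction. With marked spots kept, 4 of 6 were called higher, against 1.95% of 27935 genes. The median log2 difference was 3.13 over the 4 members and -0.11 over all genes tested. Oas1g and Oas3 passed the filter on dim probes only through the overexpression arrays, so their share in these counts and medians follows partly from the filter. That both overexpression arrays lie above both wild type arrays held for 21.6% of all genes. The labels do not say that the 2 samples of a group came from separate animals, so p-values rest on the spread between such samples alone, part or all of which may be technical. In sorted bulk samples more transcript per cell and more cells of a type that carries it cannot be told apart.

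Oas1a, one of the small active synthetases, lay at 2.88 and 3.02 on arrays labelled ZEB1 overexpression, against 1.83 and 1.84 in wild type (probe A_55_P1998943). The arrays of a group differed by 0.14 with overexpression and 0.01 in wild type, and the groups did not overlap. The log2 difference was 1.12 ± 0.24 (SE, n = 2 each, 95% interval 0.56 to 1.67, limma adjusted p = 0.0628), which missed the threshold. A second Oas1a probe of this slide, A_55_P1998942, gave 2.09 and 2.30 with overexpression and 0.10 and 0.63 in wild type, with 1 marked spot in each group. It pointed the same way.

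Its neighbour Oas1g, a paralog described as active, lay at -2.94 and -2.55 with overexpression and at -6.51 and -5.44 in wild type, where only the second array was well above background (A_55_P1998979). The log2 difference was 3.23 ± 0.38 (limma adjusted p = 0.0164). Oas1g entered the test only through the overexpression arrays, which favoured a higher value there. Its other probe on this slide, A_55_P1998977, was not well above background on any of the 4 arrays. Oas1a and Oas1g are near copies in places, and the probe sequences were not used here, so how far each probe tells the paralogs apart is uncertain.

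Oas2, a larger synthetase with repeated catalytic-type domains, lay at -0.13 and -0.02 with overexpression and at -2.99 and -3.21 in wild type. All 4 spots were unmarked and well above background, and the gap was far wider than the 0.11 and 0.22 between arrays of a group. The log2 difference was 3.03 ± 0.24 (95% interval 2.46 to 3.60, limma adjusted p = 0.00678). Oas2 stayed called when any one of the 4 arrays was left out, whether marked spots were left out or kept.

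Oas3, the longest of the synthetases, lay at -2.82 and -1.50 with overexpression and at -6.02 and -5.88 in wild type. Neither wild type spot was well above background, so the wild type level is only a bound. As measured, the log2 difference was 3.79 ± 0.43 (13.8-fold, 95% interval 2.78 to 4.80, limma adjusted p = 0.0140). Oas3 entered the test only through the overexpression arrays, so it had to be higher there. The overexpression arrays differed from each other by 1.33, above the 1.05 that 95 percent of genes stayed within. The size of the difference moved with them, to 4.45 log2 units without overexpression replicate 1 and 3.13 without replicate 2, and it was 1.32 under the background correction normexp.

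Oasl1, the member without synthetase activity, lay at 3.07 and 3.40 with overexpression and at 0.08 and 0.26 in wild type. Both overexpression spots were marked by the scanner software, so Oasl1 has a value only with marked spots kept, a log2 difference of 3.06 ± 0.24 (limma adjusted p = 0.00495). Oasl2, its active neighbour, lay at 2.01 and 2.43 with overexpression and at 0.41 and 1.09 in wild type, with both wild type spots and the first overexpression spot marked. With marked spots kept its log2 difference was 1.47 ± 0.31 (limma adjusted p = 0.0561), which missed the threshold although the groups did not overlap.

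**Figure D2:**
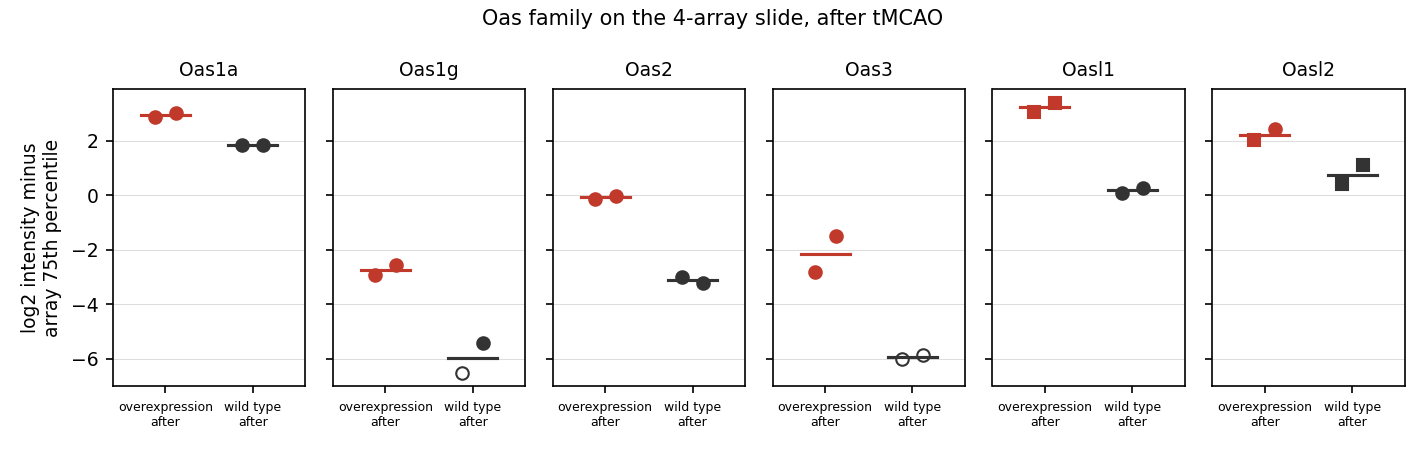
Level of 6 Oas members on the 4-array slide after tMCAO, 1 panel per gene; the y axis is log2 intensity minus the 75th percentile of the array, points are the 2 arrays of each group and bars their mean. Open symbols were not well above background and squares were marked by the scanner software. Both ZEB1 overexpression arrays lie above both wild type arrays for each gene, as for Oas2 (means -0.07 and -3.10), and both wild type spots of Oas3 are open.

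Several of these calls rested on both wild type arrays. With marked spots left out, Oas1g and Oas3 were no longer called without wild type replicate 1 (log2 difference 2.69 and 3.72, limma adjusted p = 0.0792 and 0.0944), which left 1 of 4, and Oas3 was not called without wild type replicate 2 (3.86, adjusted p = 0.0538). With marked spots kept, 4 of 6 stayed called without either wild type array or overexpression replicate 2, and 6 of 6 were called without overexpression replicate 1. Where an array is left out, its group has 1 array and is assumed to vary like the other groups. Under normexp, Oas1g was not called (0.95, adjusted p = 0.229), while Oas3 (adjusted p = 0.0272) and Oas2 (2.25) were. The overexpression arrays lay in row 2 and the wild type arrays in row 1 of the slide, so slide row and genotype cannot be told apart.

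The other genes of the pathway were taken from lists chosen for this family. Pde12, which degrades oligoadenylates, had a log2 difference of 0.75 that missed the threshold (limma adjusted p = 0.159). Among 5 further Oas1 paralogs (Oas1c, Oas1d, Oas1e, Oas1f and Oas1h) none passed in limma (3 at an unadjusted p under 0.05), with 4 of 5 differences above 0 and a median of 0.80.

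Sensors and effectors of double-stranded RNA were called higher with overexpression in 4 of the 6 measured with marked spots left out. With them kept it was 6 of 8 (median 2.01 and 1.88). Over all genes, 1.59% and 1.95% were called higher in these 2 fits, the share for the lists below as well. The 4 were Ddx58, which encodes the sensor RIG-I, at 2.21 ± 0.23 (limma adjusted p = 0.0129), the kinase gene Eif2ak2 at 2.51 ± 0.31 (0.0180), the sensor Ifih1 at 1.82 ± 0.24 (0.0200) and the endosomal receptor Tlr3 at 1.62 ± 0.27 (0.0358). Dhx58 and Zbp1 joined them with marked spots kept, at 2.06 and 1.95. The adaptor Mavs and the RNA editor Adar did not pass (0.18 and 0.80). Of the other interferon-induced antiviral genes, 5 of 8 were called higher with marked spots left out and 9 of 11 with them kept, with medians of 2.14 and 1.96. The mean level of that list was 2.24 and 2.36 on the overexpression arrays, against 0.31 and 0.43 in wild type. The 5 were Ifit2, at 4.04 ± 0.24 with marked spots kept (adjusted p = 0.00274), Rsad2, at 1.96 ± 0.22 likewise (0.0112), Ifi44 at 2.71 ± 0.27 (0.0112), Isg15 at 1.72 ± 0.24 (0.0218) and Zc3hav1 at 1.58 ± 0.25 (0.0312). With marked spots kept, Ifit1, Cmpk2, Ifit3 and Xaf1 were also called, at 2.37, 2.23, 2.06 and 1.28.

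Among genes of the interferon receptor, its kinases and ISGF3, 1 of 7 was called higher with marked spots kept (median 0.37). With marked spots left out it was 0 of 4. Of those named here, Irf9 gave 0.63 and Stat2 0.03 with marked spots kept. The receptor genes Ifnar1 and Ifnar2 gave -0.01 and 0.42 in the same fit. None of these named genes was called. Irf7, the interferon regulatory factor whose translation Oasl1 is known to hold back, lay at 0.98 and 1.81 with overexpression and at -2.74 and -2.26 in wild type. Both overexpression spots were marked, and with marked spots kept the log2 difference was 3.89 ± 0.34 (limma adjusted p = 0.00600). Irf1 gave 1.26 ± 0.24 (adjusted p = 0.0439) in the same fit, so 2 of 5 regulatory factors were called there and 0 of 3 with marked spots left out. Socs1, a feedback inhibitor, was 2.35 ± 0.32 higher with marked spots kept (limma adjusted p = 0.0177), and the feedback protease gene Usp18 by 1.58 ± 0.24 with marked spots kept (adjusted p = 0.0251).

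Of the interferon genes, 1 of 5 measured passed. Ifna5 lay at -3.48 and -3.73 with overexpression, against -6.01 and -5.74 in wild type, where neither spot was well above background (limma adjusted p = 0.0140). It entered the test only through the overexpression arrays, so it had to be higher there. Ifnb1 lay at -2.90 and -2.53 with overexpression and -3.25 and -3.58 in wild type, a difference of 0.70 ± 0.27 that was not called (adjusted p = 0.203).

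**Figure D3:**
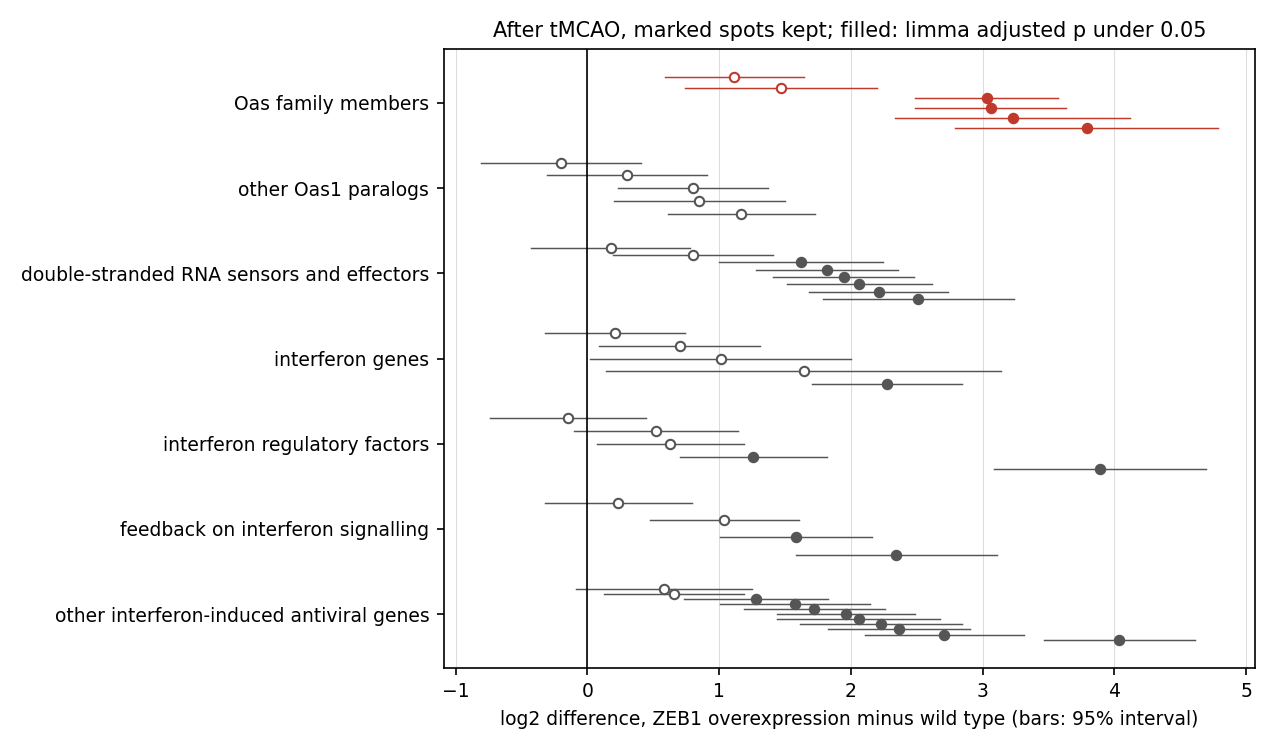
Log2 difference, ZEB1 overexpression minus wild type after tMCAO (x axis), for the Oas members and 6 pathway lists (rows), with marked spots kept. Points are genes, bars 95% intervals and filled points have a limma adjusted p under 0.05. Filled are 4 of 6 Oas members, 6 of 8 double-stranded RNA sensors and 9 of 11 other antiviral genes, against 0 of 5 other Oas1 paralogs. Over all genes, 1.95% were called higher in this fit.

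Markers of other cells moved in part with these values. With marked spots kept, the median log2 difference over all 27935 genes was -0.10, with 546 genes called higher and 349 lower. In that fit lymphocyte markers were higher with overexpression in 8 of 8 measured and none was called. Their summed intensity, as multiples of the array's 75th percentile, was 10.9 and 20.3 against 8.65 and 10.1 in wild type. Monocyte and border macrophage markers were higher in 7 of 7, none called, with sums of 31.7 and 31.0 against 24.2 and 19.0. Endothelial and mural markers were lower in 9 of 10, with 2 called lower with marked spots kept (Cldn5 and Des) and sums of 14.0 and 13.7 against 22.9 and 23.8. Neutrophil markers were higher in 4 of 7 (median 0.04), with sums of 72.1 and 72.0 against 72.1 and 61.9. Elane among them was called higher (2.01, limma adjusted p = 0.0463). Dendritic cell markers were higher in 2 of 6, with sums of 21.2 and 24.6 against 21.7 and 19.5. Oligodendrocyte markers were higher in 1 of 6 (median -0.48) and neuron markers in 0 of 6 (median -0.28), none called. The neuron sums were 38.0 and 26.3 against 43.3 and 40.5. Cd3d and Nkg7 of lymphocytes and Ccr2 of monocytes were well above background in both groups. The part of these cells in the Oas differences was not tested.

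Before tMCAO, no member was called between any 2 genotypes, and neither was any other gene in limma (0% of 25162 genes for overexpression against wild type, 0% of 30293 for knock-down against wild type and 0% of 25167 for overexpression against knock-down). At an unadjusted p under 0.05 there were 2929, 2653 and 3715 genes, none of them a member. The 3 comparisons share their arrays, so they are not independent. Wild type lay in row 1 and knock-down in row 2 of slide columns 3 and 4, and overexpression in row 2 of columns 1 and 2. Slide position and genotype therefore cannot be told apart before tMCAO. Oas1a lay at -2.17 and -1.35 with overexpression, -1.57 and -1.89 with knock-down, and -1.81 and -1.83 in wild type. The 3 groups overlapped. The log2 difference was 0.05 for overexpression minus wild type (95% interval -1.62 to 1.72) and 0.09 for knock-down minus wild type (-1.58 to 1.76). A difference of 1 log2 unit in either direction lies inside both intervals, so these arrays do not exclude it for Oas1a.

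The dim members were near background before tMCAO. Oas1g lay at -5.97 and -4.55 with overexpression, -4.70 and -5.87 with knock-down, and -6.01 and -5.25 in wild type, and the first overexpression spot was not well above background. Oas2 lay at -6.61 and -6.54 with overexpression, neither well above background, at -6.18 and -6.26 with knock-down, only the first above it, and at -6.23 and -6.09 in wild type. As read, the log2 differences of Oas2 from wild type were -0.42 for overexpression (95% interval -0.98 to 0.15) and -0.06 for knock-down (-0.62 to 0.50). The lowest signal well above background averaged -5.41 on the overexpression arrays, above the wild type mean of -6.16. The overexpression interval is therefore not a measured limit on the difference. Oas3 was not well above background on any of the 8 arrays of that slide, so no fold is given for it there.

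Oasl1 lay at -3.96 and -3.59 with overexpression, -3.67 and -4.10 with knock-down and -4.47 and -4.09 in wild type. It was the only member of 5 with both overexpression arrays above both wild type arrays, where 22.8% of all genes had that order, and its log2 difference was 0.51 ± 0.51 (limma adjusted p = 0.731). Its second probe on the 8-array slide, A_51_P437309, gave -4.93 and -4.04 with overexpression, -4.77 and -5.09 with knock-down and -5.78 and -5.03 in wild type. Oasl2 lay at -2.11 and -1.16 with overexpression, the second spot marked, -1.46 and -1.63 with knock-down and -1.39 and -1.90 in wild type. These groups overlapped as well.

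**Figure D4:**
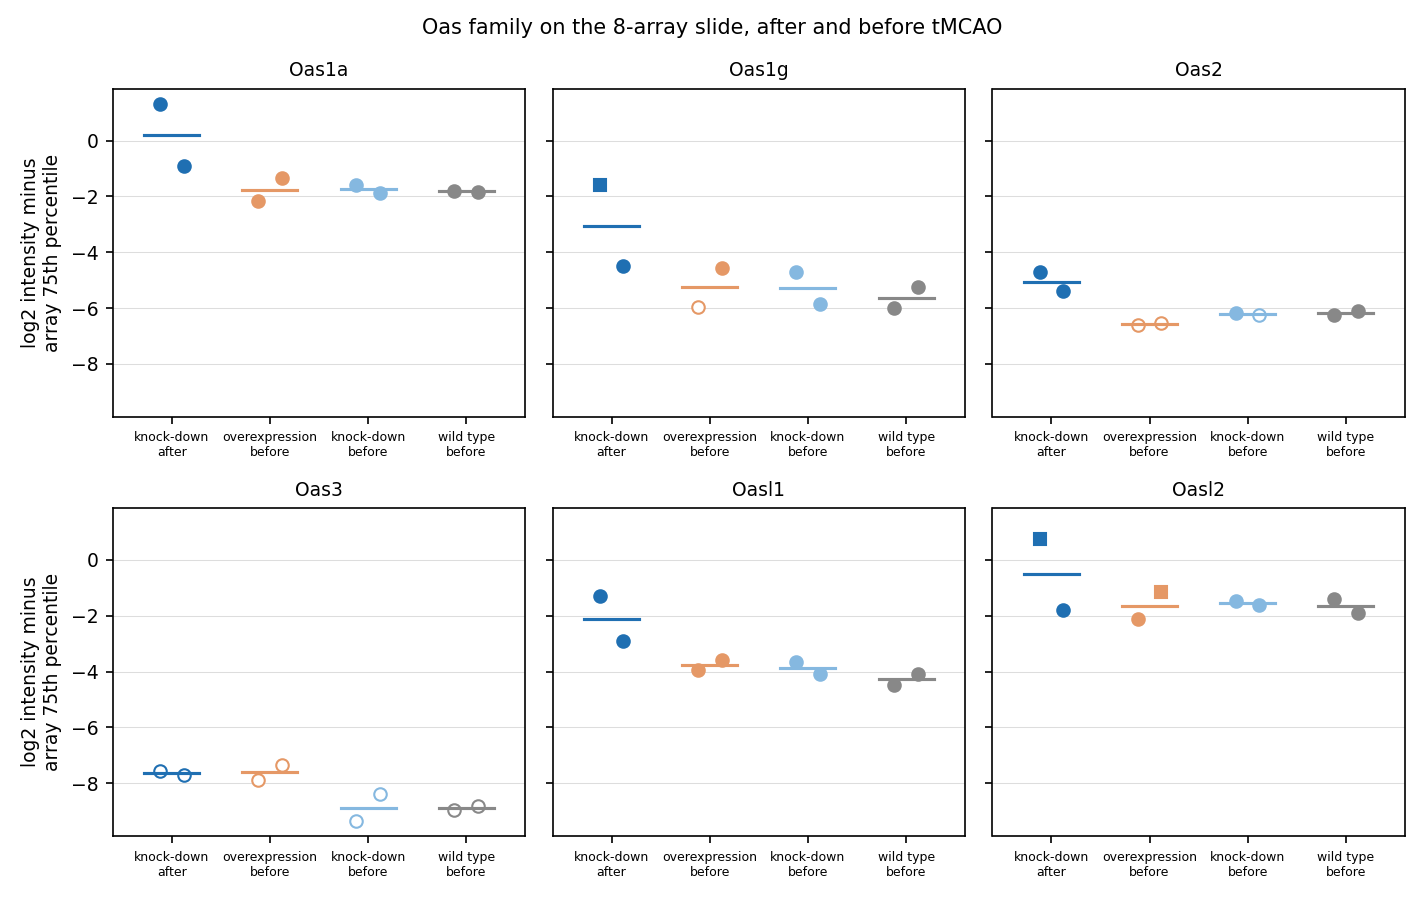
Level of 6 Oas members on the 8-array slide, 1 panel per gene; the y axis is log2 intensity minus the 75th percentile of the array, points are the 2 arrays of each group and bars their mean, open symbols were not well above background and squares were marked. The 3 groups before tMCAO lie close together for Oas1a (means -1.76, -1.73 and -1.82), whereas the 2 knock-down arrays after tMCAO lie far apart for Oas1a, Oas1g, Oasl1 and Oasl2.

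The knock-down was the only genotype with both times on the same slide. After tMCAO, 1 of 5 measured members was called higher than before it, Oas2, against 11.1% of 24646 genes called higher and 18.1% called in either direction. With marked spots kept the count was again 1 of 5, against 10.1% of 30525 genes. In 4 of 5 members both arrays after tMCAO lay above both arrays before it, which held for 33.6% of all genes. With 5 members, 1 call and this order are too few to set the family apart from all genes. Oas2 lay at -4.70 and -5.39 after tMCAO and at -6.18 and -6.26 before it, a log2 difference of 1.17 ± 0.23 (limma adjusted p = 0.0244). Its second probe on this slide, A_52_P587071, was well above background on 1 array after tMCAO (-5.33) and on neither array before it.

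The call of Oas2 was lost without either knock-down array before tMCAO (log2 difference 1.21 and 1.13, limma adjusted p = 0.0902 and 0.110), leaving 0 of 5, and it had adjusted p = 0.0530 under quantile normalization, with a log2 difference of 0.71. The arrays after tMCAO lay in slide columns 1 and 2 and those before it in columns 3 and 4, and they lay in rows 1 and 2, so slide position and time cannot be told apart in this comparison. Oas3, not above background on this slide, read -7.63 and -7.61 on average in the 2 groups of columns 1 and 2 (knock-down after and overexpression before tMCAO) and -8.88 and -8.89 in the 2 groups of columns 3 and 4 (knock-down and wild type before tMCAO). The part of this shift at the dim end in the Oas2 difference was not tested.

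The other 4 members were far apart on the 2 knock-down arrays after tMCAO, and none was called. Oas1a lay at 1.31 and -0.90 after tMCAO, against -1.57 and -1.89 before it, a log2 difference of 1.94 ± 0.69 (limma adjusted p = 0.0968). Oasl1 lay at -1.31 and -2.92 after it, against -3.67 and -4.10 before it, a difference of 1.78 ± 0.51 (adjusted p = 0.0592). For both, each array after tMCAO was above each array before it, but replicate 1 was much the higher of the 2. Oas1g lay at -1.58 (marked) and -4.51 after tMCAO and -4.70 and -5.87 before it, and with marked spots kept the log2 difference was 2.24 (limma adjusted p = 0.167). Oasl2 lay at 0.76 (marked) and -1.80 after tMCAO and -1.46 and -1.63 before it. Its log2 difference was -0.25 from the unmarked array alone and 1.03 with both arrays (limma adjusted p = 0.564 and 0.394), so even its direction turned on 1 spot.

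Replicate 1 of the knock-down after tMCAO exceeded replicate 2 by 2.21 for Oas1a, 2.93 for Oas1g, 0.69 for Oas2, 1.61 for Oasl1 and 2.56 for Oasl2. Over all genes the median size of that gap was 0.319 and 95 percent of genes stayed within 1.45, so 4 of the 5 members exceeded it. Without replicate 2, which leaves 1 array after tMCAO with a spread taken from the other groups, Oas1a and Oasl1 were called too (log2 differences 3.04 and 2.58, limma adjusted p = 0.0124 and 0.0114), and with marked spots kept 5 of 5 members were. Without replicate 1 only Oas2 was called (0.83, adjusted p = 0.0378). Other interferon-induced genes differed between the same 2 arrays in the same sense, with Irf7 at 1.93 and 0.18, Isg15 at 2.98 and 1.48 and Ddx58 at -0.09 and -1.48. Lymphocyte markers had summed intensities of 0.662 and 0.261 on these arrays, against 0.613 and 0.709 before tMCAO, and monocyte and border macrophage markers 20.5 and 20.6, against 8.26 and 8.30. Of those monocyte and border macrophage markers, 7 of 8 were called higher after tMCAO with marked spots kept. In that fit, used for the marker calls below too, 10.1% of 30525 genes were called higher and 1974 genes lower. The sum of the monocyte and border macrophage markers was much the same on both arrays. Ccr2 of infiltrating monocytes, however, lay at 0.08 and -2.02 on the 2 arrays, against -3.97 and -4.43 before tMCAO. The mean level over all 8 markers of that list, Ccr2 among them, was 0.56 and 0.27, so the list as a whole did not share that gap. Endothelial and mural markers had sums of 11.6 and 11.6, against 7.68 and 8.60 before tMCAO (5 of 10 called higher with marked spots kept), and microglia markers 48.9 and 44.8, against 35.9 and 36.2 (4 of 9 higher). Dendritic cell markers had 16.8 and 13.8, against 11.2 and 11.1 (1 of 6 higher), and neutrophil markers 11.0 and 9.09, against 6.87 and 6.08 (none of 7 called). Neuron markers had 33.9 and 36.9, against 43.5 and 44.1 (2 of 6 lower). The part of these cells in the Oas levels was not tested.

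**Figure D5:**
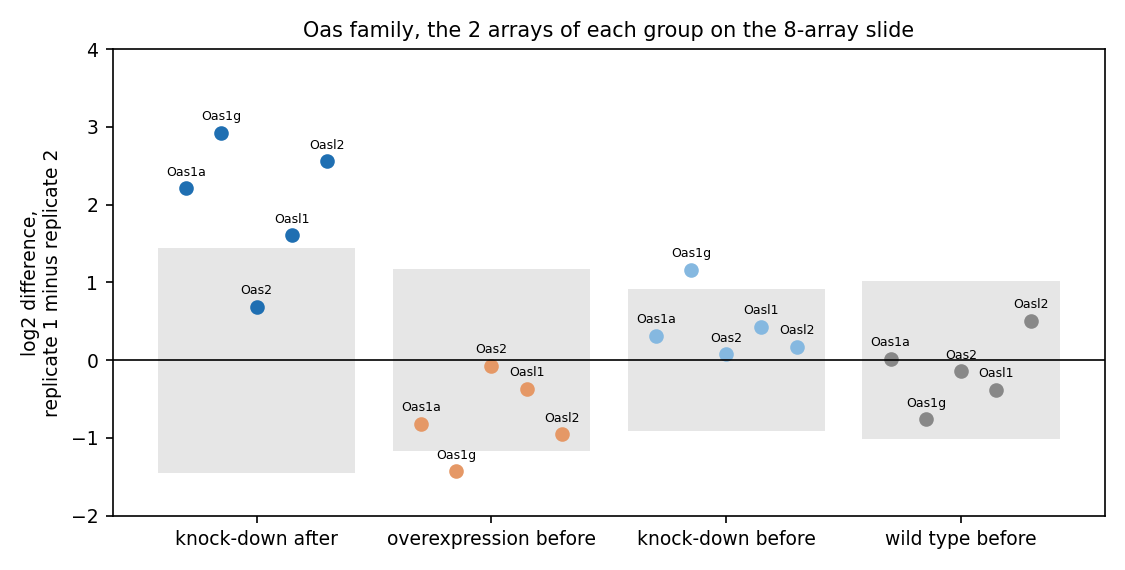
Log2 difference between replicate 1 and replicate 2 of each group on the 8-array slide (y axis) for 5 Oas members, marked spots kept. Grey bands hold 95 percent of all genes: in the knock-down after tMCAO 4 of 5 members lie above the band (up to 2.93 for Oas1g), and Oas1g alone lies outside it in overexpression (-1.43) and knock-down (1.16) before tMCAO.

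Elsewhere in the pathway, calls in the knock-down after tMCAO are set against the 11.1% of all genes called higher. Of the double-stranded RNA sensors and effectors 2 of 6 were higher, Eif2ak2 at 1.35 ± 0.21 (limma adjusted p = 0.0127) and Zbp1 at 2.67 ± 0.54 (0.0257). Of the regulatory factors 1 of 4 was called, of the feedback genes 1 of 3, of the further Oas1 paralogs 1 of 4 and of the interferon genes 0 of 3. With marked spots kept Adar was lower (-0.73, adjusted p = 0.0441). Irf9 rose by 1.30 ± 0.24 (limma adjusted p = 0.0193), Irf8 by 1.76 ± 0.29 (0.0146), the feedback inhibitor Socs3 by 2.74 ± 0.25 with marked spots kept (0.00359) and the paralog Oas1c by 0.72 ± 0.15 (0.0280). No antiviral gene of the 6 measured was called by limma with marked spots left out (1 at an unadjusted p under 0.05), and 2 of 11, Bst2 and Ifitm3, were with them kept (1.62 and 1.65). Ifnb1 was not well above background on either array after tMCAO.

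Between the slides only values can be set side by side, since slide and group cannot be told apart. Over the 30629 shared probes the wild type arrays after tMCAO lay above those before it by a median of 0.66, with 5 percent of probes under -1.95 and 5 percent over 4.22. In wild type, Oas1a was 3.65 log2 units higher after than before, Oas2 3.06, Oasl1 4.45 and Oasl2 2.40, so Oasl1 alone exceeded that upper limit. For ZEB1 overexpression, Oas1a was 4.71 higher after than before, Oasl1 7.0 and Oasl2 3.86, against a median of 0.25 and an upper limit of 4.25, which Oas1a and Oasl1 exceeded. Oas2 has no measured difference there, since neither overexpression spot before tMCAO was well above background. In the arrays after tMCAO, Oas1a read 2.95 with overexpression, 0.21 with knock-down and 1.83 in wild type on average, and Oasl1 read 3.23, -2.11 and 0.17. The order was overexpression, wild type, knock-down for both, and the same for Oas2 (-0.07, -3.10 and -5.05) and Oasl2 (2.22, 0.75 and -0.52). The step to the knock-down crosses slides and was not tested, and for Oasl2 the knock-down and wild type arrays overlapped. Over the shared probes, wild type minus knock-down after tMCAO had a median of 0.27, with 5 percent over 3.75. That step was 1.63 for Oas1a, 1.94 for Oas2, 2.28 for Oasl1 and 1.27 for Oasl2, all under this upper limit.

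The genes with a profile most like the mean of the members were found for each slide by the smallest root mean square difference of levels over its arrays, each gene's slide mean removed. On the 4-array slide, over 4 arrays and 16324 genes, they were Phf11c (0.0740), Ifi44 (0.0891), Ifi211 (0.0950), Il1f9 (0.0956) and Eif2ak2 (0.109). On the 8-array slide, over 8 arrays and 17946 genes, they were Isg15 (0.186), Trim30d (0.223), Lcp1 (0.229), Pik3ap1 (0.234) and Piezo2 (0.234). Arrays of one slide share their hybridisation and scan, so this likeness is a description of these arrays.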

How the data were processed

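Microglial RNA of 12 samples in 6 groups of 2 was measured on single-colour Agilent arrays. Per the file headers, Feature Extraction 11.5.1.1 wrote the deposited linear intensity of each spot after background subtraction, whereas the submitters' processing notes name version 9.1. Per the file headers the same files hold yes or no marks for each spot (another unit, not a level): well above background, saturated, non-uniform or outlying. The authors also deposited value tables, in log2 units, of the same arrays with the 75th percentile near 0. There, each column labelled ZEB1 knock-down after tMCAO matches the scanner file of the other replicate (correlation across probes 0.999998 and 0.999999, against 0.975), so replicate numbers here are those of the scanner files. The probes have no genome coordinates in these files, and gene positions and promoters are from RefSeq on GRCm38.p6.

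The log2 intensity minus each array's 75th percentile was used, control spots and marked spots were left out, and spots of a probe were averaged. Probes had to be well above background on both arrays of some group of their slide, and the brightest such probe by mean level stood for its gene. Probes were named by accession through the RefSeq gene table. Within a slide, one two-sided linear model of all its groups was fitted (lmFit and eBayes of limma 3.58.1, run under R 4.3.3), with Benjamini-Hochberg adjustment over all genes measured and a threshold of 0.05. Errors are standard errors, and intervals are 95%. For the dimmer side of a difference not well above background, the bound is the higher of the probe's own signal and the lowest signal well above background on that array. The script was tested on simulated data. Members with all their probes were named, with list genes that passed the threshold and some of them whatever their values; a few list genes are not reported here. The members and lists were chosen with earlier results of these data known. Marked spots kept together with an array left out was an alternative chosen after seeing the data. The others were marked spots kept, normexp (offset 50, on the median foreground and background signals because a mean signal column was not used here), quantile normalization, median centring, no filter and a strict filter on dim probes, other probe choices, the authors' value table, only the 2 groups compared, a replicate block, and leaving out each array. Deviations of same-numbered replicates had correlations of -0.19 to 0.26 between groups. Those with the knock-down after tMCAO change sign if its replicates are numbered as in the value tables. The labels tie no numbers together, so the main comparisons have no block. The number of arrays limits the precision.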

Additional observations from a re-analysis of the deposited data

Results flagged for a closer look

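As read, the log2 differences of Oas2 between ZEB1 overexpression and wild type had opposite signs before and after tMCAO. Before tMCAO it was -0.42 (95% interval -0.98 to 0.15), not called and 0.25 under normexp, with both overexpression arrays (-6.61 and -6.54) under both wild type arrays (-6.23 and -6.09). After tMCAO it was 3.03, with both overexpression arrays above both wild type arrays. The overexpression spots before tMCAO were not well above background. On those arrays the lowest signal well above it averaged -5.41, above the wild type mean of -6.16, so the sign before tMCAO is not a measured direction. The 2 comparisons lie on different slides, and the difference between them was not tested. In each comparison, slide position and genotype cannot be told apart.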

How the results depend on the processing

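For ZEB1 overexpression against wild type after tMCAO, 3 members were called; 0 were without a filter on dim probes (where no gene was called among 31284, with 4203 at an unadjusted p under 0.05 in limma) 1 of 2 with a strict filter, which leaves out Oas1g and Oas3, and 2 with normexp, under which Oas1g gave 0.95 and Oas3 1.32, against 3.23 and 3.79. Leaving out 1 array gave 1 to 6. Quantile normalization, median centring, the mean of probes, separate probes and the authors' value table each gave 3. For ZEB1 knock-down after against before tMCAO, 1 member was called; 3 were with normexp, 2 with median centring, and 0 each with quantile normalization, without the filter and with only the 2 groups in the fit. Leaving out 1 array moved the calls as given above. The median over the 3 to 5 members with a value then ran from 0.83 to 2.58 with marked spots left out, against 1.17. In this knock-down comparison the median over all genes was 0.04, against -0.27 with median centring, 0.21 with normexp and -0.09 with quantile normalization. The calls split into 2728 higher and 1732 lower, against 2068 and 3607, 5846 and 1596, and 2066 and 2542 in the same order. Normexp also shifted the median of overexpression minus wild type after tMCAO to -0.27, against -0.11. With the replicate number as a block, 3 members were called for overexpression after tMCAO and 1 for knock-down after against before, and no member's call changed; same-numbered samples share only a number.

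Directions turned mainly among differences near 0 before tMCAO, none of them called. For overexpression minus wild type, Oasl2 gave 0.0040 with marked spots kept, and Oas1g and Oas2 gave -0.035 and 0.25 with normexp. For knock-down minus wild type, Oas2 gave 0.23 with quantile normalization and 0.16 with median centring. For overexpression minus knock-down, Oas1a, Oas1g and Oas2 gave 0.070, -0.21 and 0.25 with normexp, Oas1g gave -0.16 with quantile normalization and -0.11 with median centring, and Oasl1 gave -0.019 with median centring. For knock-down after minus before tMCAO, Oasl2 gave 1.03 with marked spots kept. With 1 array left out, overexpression minus wild type before tMCAO ran from -0.35 to 0.46 for Oas1a and from -0.34 to 1.08 for Oas1g. Knock-down minus wild type ran from -0.071 to 0.24 for Oas1a, -0.24 to 0.93 for Oas1g, -0.13 to 0.011 for Oas2 and -0.15 to 0.35 for Oasl2. Overexpression minus knock-down ran from -0.44 to 0.38 for Oas1a, -0.69 to 0.74 for Oas1g and -0.10 to 0.33 for Oasl1. Oasl2 after minus before tMCAO in the knock-down ran from -0.34 to 2.30. The causes were not tested.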
